A study of Homo sapiens with 6 samples.

Results

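Lactate and pyruvate fate genes were defined as 10 genes chosen by symbol: the lactate dehydrogenases LDHA and LDHB, the lactate carriers SLC16A1 and SLC16A3 with their partner BSG, the pyruvate dehydrogenase subunit PDHA1, and the pyruvate dehydrogenase kinases PDK1, PDK2, PDK3 and PDK4. All 10 were found among the 18780 genes of the table. RNA sequencing had been run on 6 libraries of the human prostate cancer cell line PC-3, kept in DMEM/F12 with 10% fetal bovine serum. Cells of 3 libraries had received 2.5 µM trans-Gnetin H (TGH), which is built from 3 units of the plant compound resveratrol, for 24 h, and cells of the other 3 had received the solvent dimethyl sulfoxide (DMSO). The study's title speaks of depriving prostate cancer cells of glucose with this compound. Nothing in the labels says that the triplicates came from separate cultures, so the p-values measure the spread between these libraries, which may be technical. All cells are of 1 cell line in culture, which limits them as a model of prostate cancer.

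Pyruvate is the end product of glycolysis and has several fates. In the cytosol lactate dehydrogenase turns it into lactate, which restores the NAD that glycolysis needs, and lactate leaves the cell through monocarboxylate carriers. In mitochondria the pyruvate dehydrogenase complex turns it into acetyl-CoA for the citric acid cycle, and the kinases of the complex shut it off by phosphorylation while phosphatases turn it on again. Cancer cells are known for sending much of their pyruvate to lactate even with oxygen present, and LDHA, SLC16A3 and PDK1 are textbook targets of the hypoxia factor HIF-1.

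Each value is in TPM, a transcript abundance scaled by transcript length and by library total, recovered from the deposited log2(TPM + 1). Differences and their standard errors (SE) are on the log2(TPM + 1) scale, TGH minus DMSO, and a gene was called at an adjusted p under 0.05 (limma across all 12018 genes whose mean reached 1 TPM, Benjamini-Hochberg adjustment). Genes with a value of 0 numbered 1342 to 1498 in the TGH libraries, against 1530 to 3185 in the DMSO libraries, where DMSO replicates 1 and 2 had 3074 and 3185. The read depth of a library is unknown, because TPM keeps no read total. Of markers for the labelled cells, the 4 epithelial genes KRT8, KRT18, EPCAM and CDH1 were all measured. They summed to 1060 to 1068 TPM with TGH, against 1398 to 1421 TPM in DMSO. Of the 4, 3 were called lower, where 26.3% of all genes kept were called lower and 55.2% either way. The part of this lower sum in the results below was not tested. Markers of immune cells summed to at most 0.373 TPM and those of endothelial cells to at most 0.313 TPM in any library, and of 4 fibroblast markers COL1A1 alone passed the filter.

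The starts of 5 genes are shown because the results turn on them: LDHA, LDHB, SLC16A3 and PDK1 had less mRNA with TGH, and MPC1, a subunit of the mitochondrial pyruvate carrier that belongs to a wider list, had more. Each stretch runs from 250 bases before to 50 bases after an annotated start, 5′ to 3′ on the gene's strand, and was taken from RefSeq on build GRCh38.p14, while the expression table was made on hg19. Capitals mark ACGTG or its reverse complement CACGT, the core shared by hypoxia response elements and by the E-box CACGTG that MYC and related factors bind. The windows are chr11:18394313-18394612 (plus strand) for LDHA, chr12:21657793-21658092 (minus strand) for LDHB, chr17:82228792-82229091 (plus strand) for SLC16A3, chr2:172555840-172556139 (plus strand) for PDK1 and chr6:166382891-166383190 (minus strand) for MPC1.
LDHA: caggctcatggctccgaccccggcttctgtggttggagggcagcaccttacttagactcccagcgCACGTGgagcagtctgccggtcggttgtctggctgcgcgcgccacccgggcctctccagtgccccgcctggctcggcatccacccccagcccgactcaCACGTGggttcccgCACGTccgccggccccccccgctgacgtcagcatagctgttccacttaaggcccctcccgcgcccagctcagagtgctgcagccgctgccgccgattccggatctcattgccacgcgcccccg
LDHB: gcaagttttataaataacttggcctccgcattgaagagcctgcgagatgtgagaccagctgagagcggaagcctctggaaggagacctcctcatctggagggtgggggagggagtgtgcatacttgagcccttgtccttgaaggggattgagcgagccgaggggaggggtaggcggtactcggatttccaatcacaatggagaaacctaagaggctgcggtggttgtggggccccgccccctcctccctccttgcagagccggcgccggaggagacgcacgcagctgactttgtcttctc
SLC16A3: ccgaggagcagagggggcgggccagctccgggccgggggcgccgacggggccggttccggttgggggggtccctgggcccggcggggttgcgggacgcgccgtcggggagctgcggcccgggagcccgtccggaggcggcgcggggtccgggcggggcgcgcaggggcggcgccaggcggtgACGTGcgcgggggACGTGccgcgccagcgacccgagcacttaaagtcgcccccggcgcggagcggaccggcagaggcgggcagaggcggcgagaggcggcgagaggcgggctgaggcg
PDK1: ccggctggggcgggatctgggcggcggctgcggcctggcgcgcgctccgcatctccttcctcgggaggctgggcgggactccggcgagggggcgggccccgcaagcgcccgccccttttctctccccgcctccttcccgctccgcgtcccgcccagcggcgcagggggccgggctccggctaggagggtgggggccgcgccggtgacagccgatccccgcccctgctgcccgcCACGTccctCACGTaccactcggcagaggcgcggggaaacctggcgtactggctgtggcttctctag
MPC1: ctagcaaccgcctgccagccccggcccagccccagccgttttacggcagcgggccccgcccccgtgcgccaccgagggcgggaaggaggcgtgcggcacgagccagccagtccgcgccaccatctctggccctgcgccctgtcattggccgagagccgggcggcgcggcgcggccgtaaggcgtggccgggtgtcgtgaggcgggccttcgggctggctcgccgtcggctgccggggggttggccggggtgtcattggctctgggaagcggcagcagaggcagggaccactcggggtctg

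RefSeq gives LDHA 2 such windows, SLC16A3 5 and PDK1 2, and the one with the most matches is shown for each. The LDHA window holds 5 matches on both strands together, 4 of which are the overlapping pairs inside 2 copies of CACGTG. The SLC16A3 and PDK1 windows hold 2 matches each, and none of these lies in a CACGTG. The windows of LDHB and MPC1 hold no ACGTG on either strand, which says only that these letters are not in these windows. Among all 35116 windows of 27305 genes, 21.4% hold ACGTG on either strand and 7.26% hold CACGTG. A window was found for 9 of the 10 genes, 18 windows in all, and 6 of these hold ACGTG. BSG, PDK2 and PDK3, which were not called, also have a window with ACGTG, inside a CACGTG in BSG and PDK2. PDHA1 and LDHB, which fell, have no ACGTG in theirs. A match is a description of the letters and not a binding site.

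With TGH, 6 of the 9 genes that passed the filter were lower and 0 were higher. Those that fell were both lactate dehydrogenases, both lactate carriers, the dehydrogenase subunit PDHA1 and the kinase PDK1, while BSG, PDK2 and PDK3 were not called. The median difference of the 9 was -0.20, beside 0.02 over all genes kept. These counts stand against a background in which 26.3% of all genes kept were called lower, 28.9% higher and 55.2% either way, so a call alone is common here. The 2 groups did not overlap in 6 of the 9 genes, and in 64.4% of all genes kept. The differences themselves ran from -0.77 for LDHA to -0.02 for PDK3. In RNA from bulk cells, a change in the share of cells and a change in the RNA per cell cannot be told apart.

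**Figure D1:**
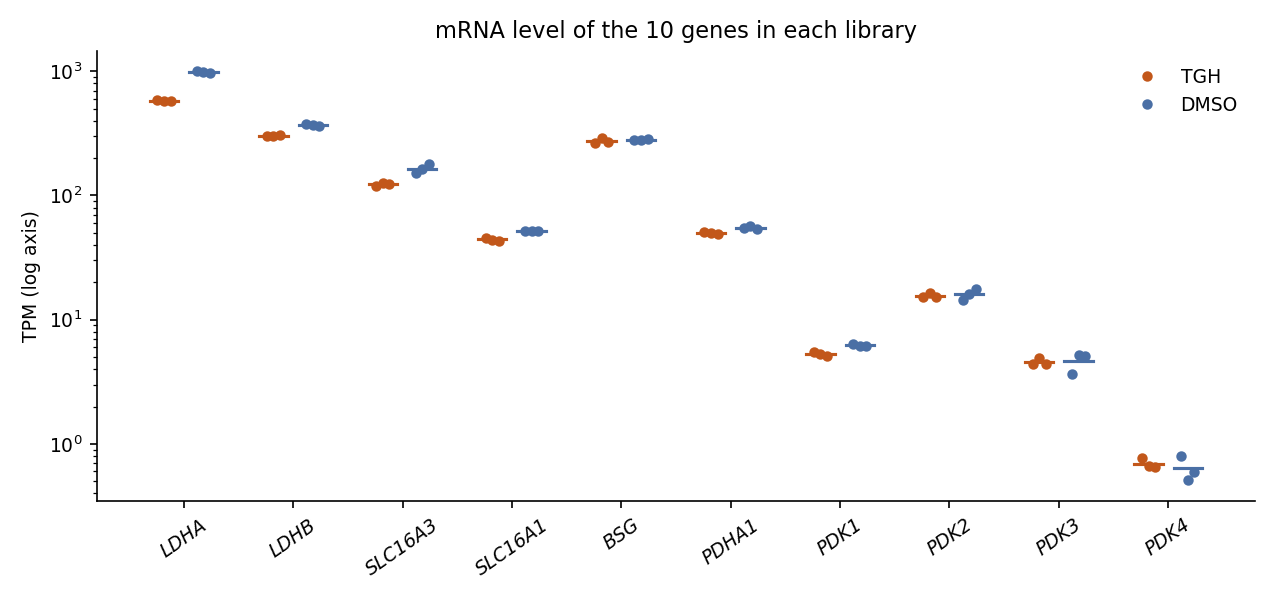
TPM (log axis) of each gene in each library, with TGH libraries to the left of DMSO libraries, a point per library and a line at each group's mean. LDHA lies highest, at 579 to 583 TPM with TGH and 977 to 1001 TPM in DMSO, and PDK4 lowest, under 1 TPM in all 6 libraries.

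The levels span a wide range. By mean TPM in DMSO the order was LDHA, LDHB, BSG, SLC16A3, PDHA1, SLC16A1, PDK2, PDK1, PDK3 and PDK4, and no pair of neighbours in that order overlapped within either group of 3 libraries. LDHA ranked 68 among the 18780 genes by mean DMSO TPM, LDHB 184 and BSG 259. The kinases stood far lower, with PDK2 at rank 4697 and PDK4 at 12477.

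LDHA encodes the subunit that favours lactate production. It had 583, 579 and 579 TPM in TGH replicates 1 to 3, against 1001, 994 and 977 TPM in DMSO replicates 1 to 3. The 6 values fell into 2 tight groups far apart, with no overlap. The difference was -0.77 (SE 0.01, limma adjusted p = 5.8e-07), with a 95% confidence interval from -0.81 to -0.74.

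LDHB encodes the subunit that favours the return of lactate to pyruvate. It had 302, 301 and 305 TPM in the TGH libraries, against 374, 368 and 363 TPM in the DMSO libraries. The groups did not overlap, but they stood closer together than for LDHA. LDHB fell by 0.28 on the log2 scale (SE 0.02, limma adjusted p = 3.9e-05).

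The ratio of LDHA to LDHB was thus lower with TGH. It was 1.93, 1.92 and 1.90 in the TGH libraries, against 2.68, 2.70 and 2.69 in the DMSO libraries. LDHA made up 65.7% ± 0.207 of the summed LDHA and LDHB TPM with TGH and 72.9% ± 0.0697 in DMSO (SD, n = 3 each). The sum itself was 883 ± 2.75 TPM with TGH and 1359 ± 17.9 TPM in DMSO. The log2 ratio differed by -0.49, and the exact two-sided permutation p was 0.1, the smallest that 3 libraries against 3 allow (0.3 after Benjamini-Hochberg adjustment over 3 ratios). The ratio was lower in every TGH library than in any DMSO library, and the spread within each group was small beside the gap.

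Of the further lactate dehydrogenase genes listed, LDHD, which encodes the mitochondrial D-lactate dehydrogenase, alone passed the filter. It had 2.49, 2.56 and 2.34 TPM in the TGH libraries, against 0.709, 0.785 and 0.797 TPM in the DMSO libraries. LDHD rose by 0.97 (SE 0.07, limma adjusted p = 5.0e-05), at a level far under those of LDHA and LDHB. At such low levels the size depends on the pseudocount, and it was 1.57 at a pseudocount of 0.1 and 0.37 at 5, called in both. It passed the filter through its TGH values, since its DMSO values all lie under 1 TPM. LDHC, LDHAL6A and LDHAL6B, known mainly from testis, stayed at or under 0.38 TPM in all 6 libraries.

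Copies named after 4 of these genes exist in the genome, and copies under other kinds of names were not searched for. The GENCODE annotation used here names 6 pseudogenes of LDHA, 3 of LDHB, 1 of PDHA1 and 1 of SLC16A1, and the table lists 0 of them. How the authors' counting assigned reads shared with such copies is not given in the sources used here, so the levels of these 4 genes carry that uncertainty.

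The lactate carriers chosen here, SLC16A3 and SLC16A1, also fell. SLC16A3 encodes MCT4, the exporter typical of glycolytic cells. It had 120, 126 and 125 TPM in TGH replicates 1 to 3, against 151, 163 and 178 TPM in DMSO replicates 1 to 3. The groups did not overlap, although the DMSO libraries were spread much wider than the TGH libraries. The difference was -0.40 (SE 0.06, limma adjusted p = 0.0014).

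SLC16A1 encodes MCT1, a carrier that works in both directions. It had 45.8, 44.2 and 43.0 TPM in the TGH libraries, against 52.1, 51.3 and 51.8 TPM in the DMSO libraries, with no overlap. It fell by 0.22 (SE 0.03, limma adjusted p = 0.0010). The ratio of SLC16A3 to SLC16A1 was 2.79 ± 0.157 with TGH and 3.17 ± 0.275 in DMSO (SD, n = 3 each). These groups overlapped, since TGH replicate 3 and DMSO replicate 1 both had 2.90, and the exact permutation p was 0.2 (adjusted 0.3).

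BSG, or basigin, is the membrane protein that brings both carriers to the cell surface. It had 265, 288 and 271 TPM in the TGH libraries, against 280, 282 and 284 TPM in the DMSO libraries. The highest and the lowest value were both from TGH libraries, so the groups overlapped. The difference was -0.04 (95% interval -0.11 to 0.04, limma adjusted p = 0.328). Without TGH replicate 2, the library with the highest value, BSG was called at -0.07 (adjusted p = 0.0353).

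The other monocarboxylate carriers, listed together with the partner protein EMB, moved both ways at low levels. Of 15 genes listed, 13 had a row, 6 passed the filter, 2 were higher and 2 lower, with a median of -0.05. Calls over all genes kept were 28.9% higher and 26.3% lower. SLC16A7, which encodes the high-affinity monocarboxylate carrier MCT2, had 1.94 ± 0.0631 TPM with TGH and 1.23 ± 0.0653 TPM in DMSO (SD, n = 3 each). Unlike SLC16A3 and SLC16A1, it rose, by 0.40 (limma adjusted p = 0.0019), or by 0.62 and 0.16 at pseudocounts of 0.1 and 5. SLC16A14, whose substrate is poorly known, had 5.77 ± 0.339 TPM with TGH and 8.08 ± 0.461 TPM in DMSO and fell by 0.42 (limma adjusted p = 0.0010). SLC16A13 rose by 0.44 (limma adjusted p = 0.0236), but this call was lost without TGH replicate 1 (adjusted p = 0.0799) and without TGH replicate 3 (adjusted p = 0.0708). EMB, or embigin, the alternative partner of MCT1 and MCT2, was the other lower gene at -0.22 (limma adjusted p = 0.0279), named here with its values already known. It fell to 3.50, 3.20 and 3.34 TPM in the TGH libraries, against 4.48, 3.88 and 3.84 TPM in the DMSO libraries, a call lost without TGH replicate 1, 2 or 3 (adjusted p = 0.0501, 0.0916 and 0.0795) and without a filter (0.0556).

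**Figure D2:**
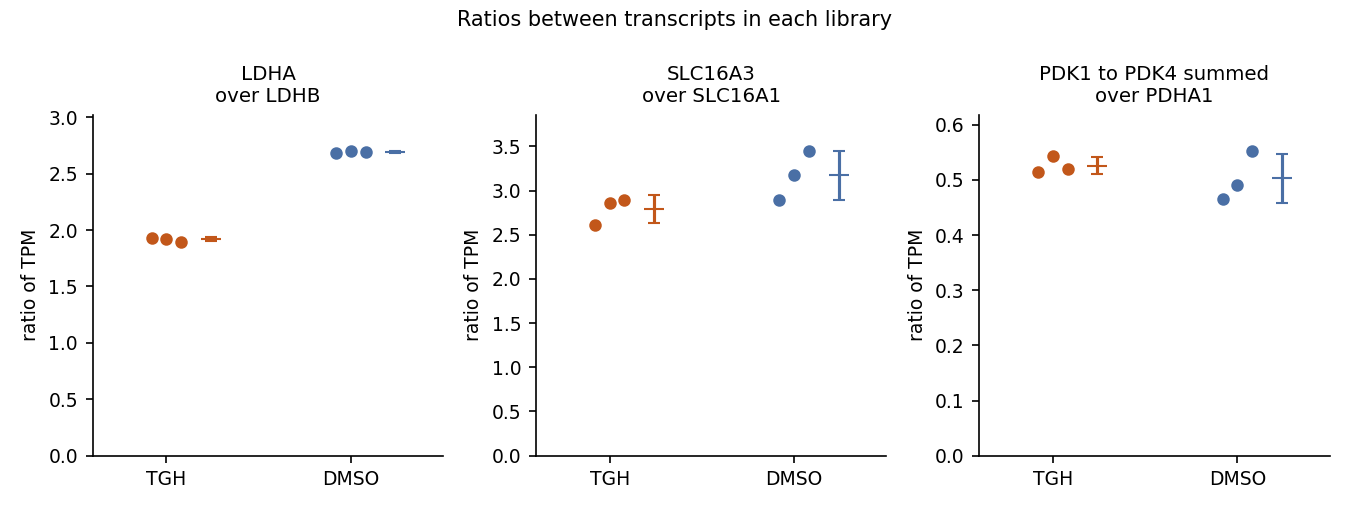
Ratios of TPM between transcripts in each library (vertical axes from 0), with TGH to the left of DMSO, a point per library and the mean with SD beside the points. LDHA over LDHB lies at 1.90 to 1.93 with TGH and at 2.68 to 2.70 in DMSO, while the groups overlap in the other 2 ratios.

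Of the pyruvate dehydrogenase kinases that passed the filter, PDK1 alone was called, as lower, whereas a phosphatase and a carrier subunit rose. PDHA1 encodes the catalytic subunit that the kinases phosphorylate. It had 50.5, 50.2 and 48.8 TPM in the TGH libraries, against 54.4, 57.2 and 53.9 TPM in the DMSO libraries. The groups did not overlap, and PDHA1 fell by 0.14 (SE 0.03, limma adjusted p = 0.0078).

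PDK1 is the kinase known for its response to hypoxia. It had 5.48, 5.31 and 5.07 TPM in the TGH libraries, against 6.42, 6.13 and 6.16 TPM in the DMSO libraries. All TGH values lay under all DMSO values, and PDK1 fell by 0.20 (SE 0.04, limma adjusted p = 0.0082). At a pseudocount of 0.1 the difference was -0.23 and under quantile normalization -0.29, called in both. With DMSO replicate 3 as the only control the difference was -0.19 and was not called (adjusted p = 0.0594), and at a pseudocount of 5 it was -0.13 and called.

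PDK2, the most abundant of the 4 kinases here, had 15.3, 16.4 and 15.3 TPM in the TGH libraries, against 14.5, 16.2 and 17.8 TPM in the DMSO libraries. The TGH values lay inside the range of the DMSO values. The difference was -0.04 (95% interval -0.22 to 0.13, limma adjusted p = 0.661). Against DMSO replicate 3 alone, the library with the highest value, PDK2 was called at -0.18 (adjusted p = 0.0472).

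PDK3 had 4.42, 4.93 and 4.38 TPM in the TGH libraries, against 3.69, 5.19 and 5.14 TPM in the DMSO libraries. DMSO replicate 1 held the lowest value and the other DMSO libraries the highest, so the groups overlapped. The difference was -0.02 (95% interval -0.29 to 0.26, limma adjusted p = 0.918), an interval that leaves room for a change as large as that of LDHB.

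PDK4, the kinase induced by fasting and fatty acids in muscle and liver, did not pass the filter. It had 0.767, 0.662 and 0.652 TPM in the TGH libraries, against 0.807, 0.508 and 0.597 TPM in the DMSO libraries, and the groups overlapped. Without a filter the difference was 0.05 (limma adjusted p = 0.636).

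Together the 4 kinases summed to 26.2 ± 0.961 TPM with TGH and 27.7 ± 2.19 TPM in DMSO (SD, n = 3 each). PDK2 made up 59.7% of this sum with TGH and 58.3% in DMSO, and PDK1 20.2% with TGH and 22.6% in DMSO. The sum of the kinases over PDHA1 was 0.526 ± 0.0154 with TGH and 0.503 ± 0.0442 in DMSO, with overlapping groups (exact permutation p = 0.5, adjusted 0.5).

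Partners of the complex were counted from a list of 10 genes, of which 9 were measured and passed the filter. Of these 2 were higher, 2 lower and 5 not called, with a median of -0.08. Across all genes kept, 28.9% were called higher and 26.3% lower. The largest difference was that of MPC1, which with MPC2 forms the carrier that brings pyruvate into mitochondria. MPC1 had 22.2, 22.0 and 20.6 TPM in the TGH libraries, against 9.06, 8.89 and 9.35 TPM in the DMSO libraries. The groups were widely separated, and MPC1 rose by 1.16 (SE 0.04, 95% interval 1.06 to 1.26, limma adjusted p = 4.6e-06). The other subunit moved the opposite way and by little, with MPC2 at 27.5, 26.2 and 27.8 TPM in the TGH libraries, against 28.7, 29.3 and 30.1 TPM in the DMSO libraries. MPC2 was called at -0.11 (limma adjusted p = 0.0356), a call lost without TGH replicate 1, 2 or 3 (adjusted p = 0.0671, 0.112 and 0.0545) and without DMSO replicate 2 or 3 (0.0667 and 0.0999).

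**Figure D3:**
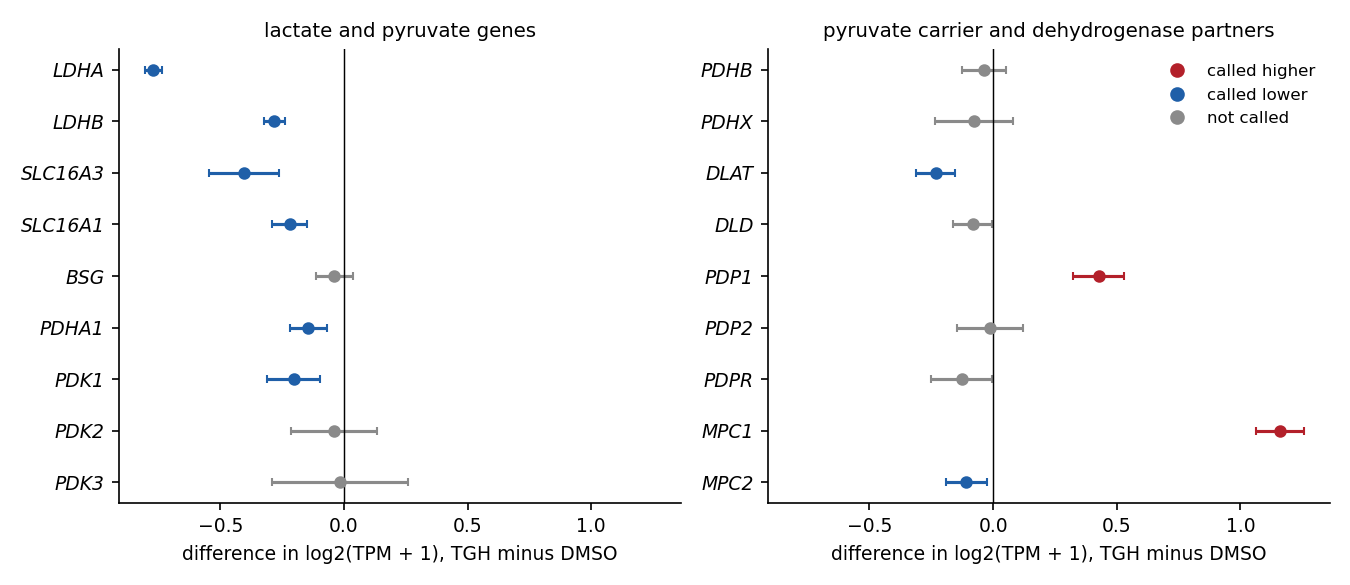
Differences in log2(TPM + 1), TGH minus DMSO, with 95% confidence intervals from limma, for the 9 lactate and pyruvate genes that passed the filter (left) and the 9 carrier and dehydrogenase partners (right). LDHA at -0.77 and MPC1 at 1.16 stand at the ends, and colours mark genes called higher, called lower and not called.

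PDP1, the phosphatase that reactivates pyruvate dehydrogenase, had 34.3, 35.6 and 33.7 TPM in the TGH libraries, against 24.5, 25.0 and 26.9 TPM in the DMSO libraries. It rose by 0.43 (SE 0.04, limma adjusted p = 2.5e-04), with no overlap. The second phosphatase, PDP2, had 3.03 ± 0.0678 TPM with TGH and 3.07 ± 0.181 TPM in DMSO, a difference of -0.01 (limma adjusted p = 0.850). PDPR, a regulatory subunit that restrains the phosphatase, had 6.95 ± 0.121 TPM with TGH and 7.69 ± 0.510 TPM in DMSO and was not called (-0.13, limma adjusted p = 0.0747). Its groups did not overlap, and it was called without DMSO replicate 1 (-0.16, adjusted p = 0.0371).

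Among the enzyme subunits DLAT, the acetyltransferase core, was called, and the other 3 of the list were not. It had 25.7, 25.4 and 24.9 TPM in the TGH libraries, against 30.5, 30.5 and 28.9 TPM in the DMSO libraries, and fell by 0.23 (SE 0.03, limma adjusted p = 0.0012). PDHB, the second subunit of the dehydrogenase, had -0.04 (adjusted p = 0.443), DLD, the flavoprotein that reoxidizes the core, -0.08 (adjusted p = 0.0751), and PDHX, which tethers DLD, -0.08 (adjusted p = 0.353). DLD was nonetheless lower in every TGH library, at 46.6 to 48.2 TPM, against 49.0 to 52.4 TPM in DMSO, and it was called under median scaling (-0.11, adjusted p = 0.0282).

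Other enzymes that make or use pyruvate and its products moved in both directions. Of 10 listed, 9 had a row, 8 passed the filter, 4 were higher and 2 lower, with a median of 0.28. Among all genes kept 28.9% were called higher and 26.3% lower, so calls in both directions are common. PCK2, the mitochondrial enzyme that makes phosphoenolpyruvate from oxaloacetate, had 14.5, 13.9 and 14.3 TPM in the TGH libraries, against 6.24, 5.54 and 5.92 TPM in the DMSO libraries. It rose by 1.14 (SE 0.05, limma adjusted p = 8.7e-06). PC, which makes oxaloacetate from pyruvate, had 6.21 ± 0.436 TPM with TGH and 2.91 ± 0.322 TPM in DMSO (SD, n = 3 each; limma adjusted p = 1.6e-04). CS, citrate synthase, which consumes the acetyl-CoA made from pyruvate, had 82.9 ± 2.33 TPM with TGH and 119 ± 2.04 TPM in DMSO (limma adjusted p = 2.1e-05). The remaining called genes, named after their values were seen, were GPT2, which makes alanine from pyruvate (0.55), ME3, which makes pyruvate from malate (0.49), and ACLY, which splits exported citrate (-0.29).

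NADH made in the cytosol can also be spent through mitochondrial shuttles, which compete with lactate dehydrogenase for it. Of 10 shuttle genes 9 passed the filter, 3 were higher and 3 lower, with a median of -0.0015. The shares over all genes kept were 28.9% higher and 26.3% lower. Without TGH replicate 1 the count of higher genes was 1, and it was 1 against DMSO replicate 3 alone. GOT2, the mitochondrial aspartate aminotransferase, had 70.2 ± 1.25 TPM with TGH and 86.9 ± 3.74 TPM in DMSO and fell by 0.30 (limma adjusted p = 5.4e-04). GPD2, the mitochondrial glycerol phosphate dehydrogenase, had 15.4 ± 0.330 TPM with TGH and 20.1 ± 1.16 TPM in DMSO and fell by 0.37 (limma adjusted p = 7.3e-04). MDH2, the mitochondrial malate dehydrogenase, had 263 ± 4.77 TPM with TGH and 231 ± 4.53 TPM in DMSO and rose by 0.19 (limma adjusted p = 6.3e-04).

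Transcription factors known to act on these genes were listed as well. Of 12, 11 passed the filter, 4 were higher and 2 lower, with a median of 0.11. Beside this, 28.9% of all genes kept were called higher and 26.3% lower. ARNT, the partner of the hypoxia factors, had 10.5, 10.8 and 11.3 TPM in the TGH libraries, against 7.80, 7.70 and 7.47 TPM in the DMSO libraries, and rose by 0.46 (SE 0.04, limma adjusted p = 1.8e-04). PPARA, a lipid-sensing receptor that induces PDK4 in liver, rose by 0.79 (limma adjusted p = 1.9e-04; 1.11 and 0.36 at pseudocounts of 0.1 and 5), with 3.27 ± 0.0518 TPM with TGH and 1.47 ± 0.203 TPM in DMSO. PPARD, its relative, rose by 0.33 (limma adjusted p = 2.5e-04). Named after its values were seen, HIF1A had 68.3 ± 1.14 TPM with TGH and 72.3 ± 2.28 TPM in DMSO and was not called (-0.08, limma adjusted p = 0.0591), though it was called without DMSO replicate 1 (-0.10, adjusted p = 0.0209). EPAS1, the other hypoxia factor of the list, had 38.8 ± 0.799 TPM with TGH and 35.3 ± 0.760 TPM in DMSO and rose by 0.13 (limma adjusted p = 0.0085). MYC fell by 0.18 (limma adjusted p = 0.0019), and NR3C1, the glucocorticoid receptor, fell by 0.28 (limma adjusted p = 0.0051), a call lost against DMSO replicate 3 alone (adjusted p = 0.0613). EPAS1, MYC and NR3C1, too, were named with their values known.

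**Figure D4:**
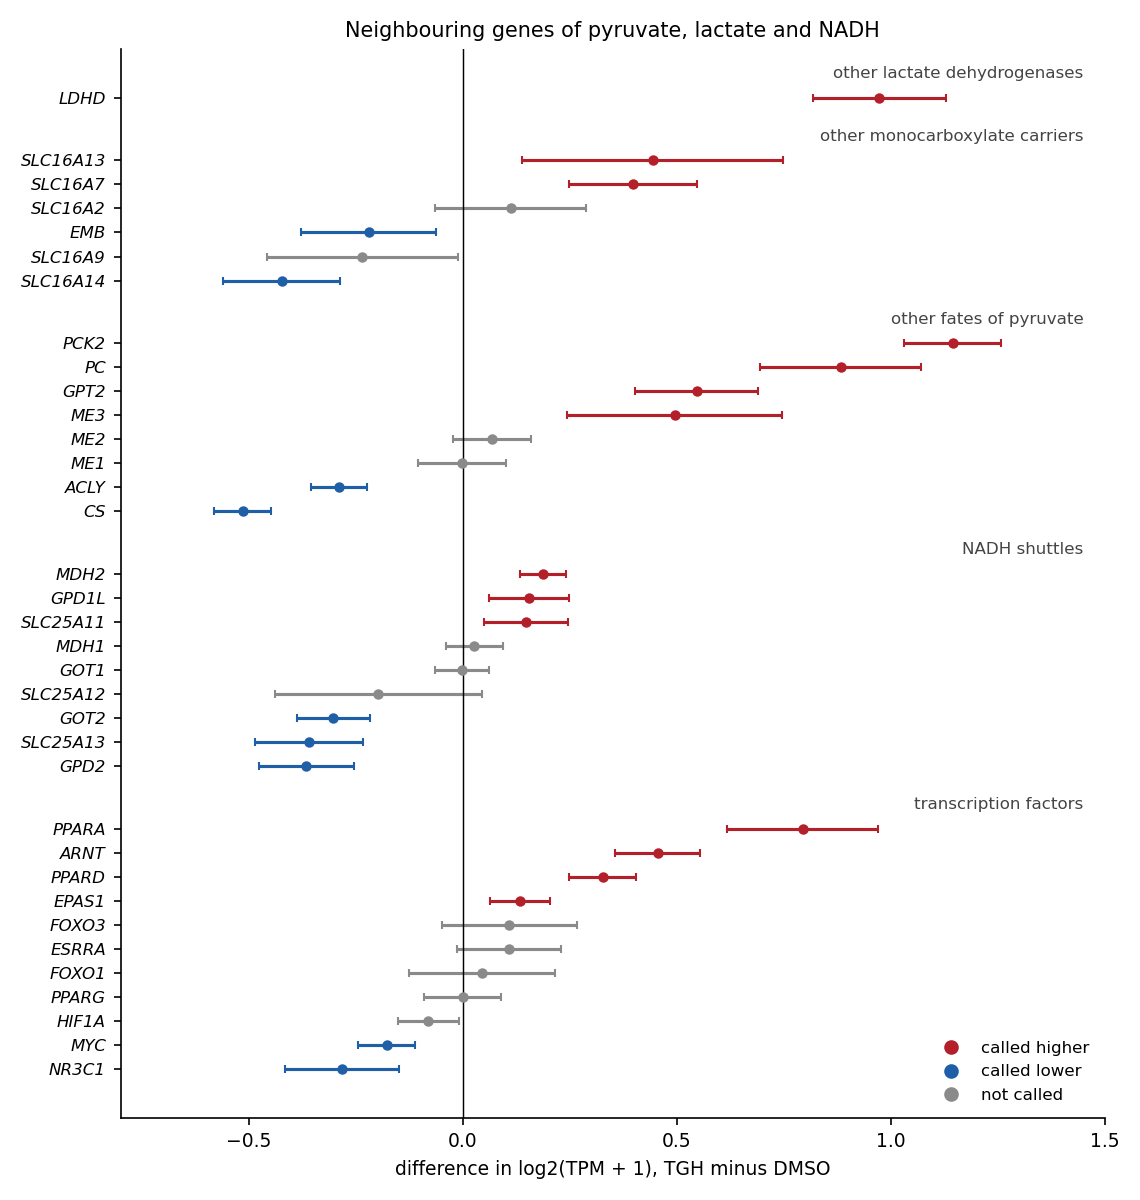
Differences in log2(TPM + 1), TGH minus DMSO, with 95% confidence intervals from limma, for genes of the other lists that passed the filter, grouped by list and sorted by size within it. PCK2 at 1.14 and LDHD at 0.97 lie farthest to the right, and CS at -0.51 farthest to the left. The order of the low genes depends on the pseudocount, since at 0.1 LDHD lay above PCK2 (1.57 and 1.26) and at 5 it lay below PC (0.37 and 0.50).

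The genes whose 6 values, centred on their DMSO mean, came closest to those of LDHA were LXN, CENPF and EWSR1, at Euclidean distances of 0.0315, 0.0387 and 0.0437 on the log2 scale. LXN, an inhibitor of carboxypeptidases, had 82.1 ± 0.309 TPM with TGH and 142 ± 1.19 TPM in DMSO (SD, n = 3 each). CENPF is a protein of the kinetochore and EWSR1 an RNA-binding protein. Closest to PDK1 were LUZP6, FAR1 and CUL3, at distances of 0.034, 0.0345 and 0.0413. LUZP6 lies within the transcript of MTPN, so its reads may belong to that gene, FAR1 makes fatty alcohols for ether lipids, and CUL3 is the scaffold of ubiquitin ligases. With 2 groups of 3 libraries such likeness rests mostly on the size of the difference between the groups.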

How the data were processed

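The authors deposited log2(TPM + 1) values, 1 column per library and 1 row per gene symbol. That the offset is 1 follows from a smallest value of 0. Reads were placed on hg19, a build named in the submitters' processing notes. Per the labels' protocols, RNA was depleted of ribosomal RNA and libraries kept the strand. Aligner, quantifier, annotation and filters were not given in the sources used here. Listed TPM of each library sum to 502380 to 518870, so part of each library is not among the rows, and a shift in 1 abundant RNA moves all other values.

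Genes whose mean reached 1 TPM were kept (12018 of 18780). TGH was compared with DMSO with limma 3.58.1, run in R 4.3.3, on the deposited log2 values (moderated variances with a trend), two-sided, with Benjamini-Hochberg adjustment over all genes kept. Differences on this scale understate the change of low genes. The step was tested on simulated data. It recovered 40.9% of log2 differences of 0.25, 76.7% of 0.5 and 94.8% of 1, and 3.28% of calls were false. Whether these rates hold for the measured libraries, where 55.2% of all genes kept were called either way, was not tested. A gene not called may still differ by a small amount. Ratios of TPM were compared by exact permutation with SciPy 1.17.1, and figures drawn with matplotlib 3.10.9. Promoter sequences came from RefSeq (GRCh38.p14).

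The members and the lists were chosen with earlier results of these data known. The genes named are the 10 members, the kept dehydrogenase partners, the 3 genes of each other list with the smallest p, and the 3 genes closest to LDHA and to PDK1. EMB, GPT2, ME3, ACLY, HIF1A, MYC, EPAS1 and NR3C1 were named outside this rule, with their values known. Alternatives were a pseudocount of 0.1 or 5, the filter dropped or set to 5 TPM, median scaling, quantile normalization, variances without trend or robust, a replicate block, DMSO replicate 3 as the only control, and leaving out each library.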

Additional observations from a re-analysis of the deposited data

How the results depend on the processing

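Under all 16 alternatives 0 members were called higher and 6 or 7 lower, and LDHA, LDHB, SLC16A1, SLC16A3, PDHA1, MPC1, PDP1 and DLAT kept their direction and their call. Of 616 values of single genes under an alternative, 580 kept direction and call, 18 lost the call, 8 gained it and 10 changed sign, the last all in genes not called. With DMSO replicate 3 as the only control, where the spread was estimated among TGH libraries, PDHX had 0.034, the ratio of SLC16A3 to SLC16A1 differed by -0.31, that of the kinases to PDHA1 by -0.070 in place of 0.068, and the counts were 1 lower dehydrogenase partner, 1 higher shuttle gene and 1 lower transcription factor. Under quantile normalization PDHB had 0.00582, and 1 other carrier was higher. Median scaling gave 4 lower dehydrogenase partners, DLD and PDPR among them, and called HIF1A at -0.11. A mean of 5 TPM left 0 further lactate dehydrogenases, 0 higher and 1 lower carrier, and 2 higher genes of other pyruvate fates, since fewer genes were tested. No filter left 1 lower carrier. At a pseudocount of 5 the differences of further low genes shrank by over 1.5 times with their calls kept, to 0.50 for PC, 0.28 for ME3, 0.19 for SLC16A13, -0.28 for SLC16A14, -0.12 for EMB and -0.19 for NR3C1.

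Leaving out 1 library at a time, PDK2 ranged from -0.114 to 0.0278, PDK3 from -0.147 to 0.0535, PDHB from -0.0700 to 0.000256, PDP2 from -0.0478 to 0.0163, PDHX from -0.133 to -0.0047, DLD from -0.0983 to -0.0521, PDPR from -0.162 to -0.0810, BSG from -0.0734 to -0.0134 and the log2 ratio of the kinases to PDHA1 from 0.0158 to 0.138. The list of other carriers, with EMB counted in it, ranged from 1 to 2 higher and 1 to 3 lower genes. There were from 1 to 3 lower dehydrogenase partners and from 1 to 3 higher shuttle genes. Where not stated, the cause was not tested.

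Same-numbered libraries deviated together with correlations of 0.00877, 0.0544 and 0.228 across 12018 genes. Libraries of different number had correlations from -0.158 to 0.0956. The numbers were not taken to pair the libraries, although TGH and DMSO replicates 3 had the highest value. With the replicate number as a block 3273 genes were higher and 2958 lower, 6 members lower, 1 carrier higher and 1 dehydrogenase partner lower, with MPC2 at an adjusted p of 0.0516 and SLC16A13 at 0.0506. Depth is unknown, so no lower limit of detection can be set for PDK4.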
